A study of Mus musculus with 12 samples.

Results

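Trp53, which encodes the transcription factor p53, and 9 genes known as its direct targets (Cdkn1a, Mdm2, Bax, Bbc3, Pmaip1, Ccng1, Sesn2, Aen and Phlda3) were followed across 12 tumour libraries. These 10 genes were taken by name and not by a cut on their values, but they were chosen with earlier results of these data known. They are 10 of the 41009 genes in the deposited table, and all 10 were among the 14306 genes with enough signal to be tested. The tumours grew from mCherry-labelled 4T1 cells, a mammary carcinoma line of BALB/c mice, placed in the mammary fat pad of each host, a female BALB/c mouse of 4 to 5 weeks. Mice were randomised 7 days later and injected intraperitoneally with an Fc fusion protein. In the first group it was VHH-OD-PD-1-Fc at 4.3 mg/kg, which carries both binding arms. The second group received VHH-PD-1-Fc at 2.6 mg/kg and the third VHH-OD-Fc at 3.5 mg/kg. The last group received Ctrl-Fc at 5 mg/kg and is called Ctrl. Each group has 3 libraries. A VHH is a nanobody, made from the binding domain of a heavy-chain antibody of camels and their relatives. PD-1 is a receptor on T cells that dampens their activity. OD is not spelled out in the labels, and the title of the series speaks of targeting endogenous digoxin-like substances. Whether each library is a different mouse is not stated, and the p-values cover only the spread among libraries, which may be technical.

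p53 is held at a low level by MDM2, a ubiquitin ligase that marks it for degradation, and is stabilised when DNA damage or other stress breaks that contact. It then binds DNA as a tetramer at sites made of a pair of half-sites and raises transcription of genes for cell cycle arrest, apoptosis, DNA repair and metabolism. Mdm2 is itself a target, which closes a negative feedback loop. p53 is regulated mostly at the level of the protein, so the Trp53 transcript is a poor measure of its activity. 4T1 cells are reported to lack p53, while the mouse's own cells in the tumour (fibroblasts, endothelium, leukocytes) carry it. In bulk tumour RNA, fewer cells of a type and less RNA per cell cannot be told apart.

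Because p53 binds DNA, the promoters of the members were read for its half-site, the 10-base element that makes up one side of a full site. RefSeq promoters (GRCm38.p6, the reference mouse strain and not BALB/c) of 250 bases before to 50 bases after the start were read for 9 of the 10 genes, in 13 windows. Pmaip1 was not among them. A match on either strand was found in 7 windows of 6 genes. The windows of Aen overlap and hold the same match, so it is counted again among those 7 windows. Of all 32851 promoters of that length, 8.36% held a half-site. Trp53, its inhibitor Mdm2 and 3 targets that changed in at least 1 comparison below are shown in transcript direction with the half-site match in capitals. The upstream start of Cdkn1a (chr17:29090729-29091028, + strand) had a pair of matches, at -73 and -51 from the start, close enough to each other that 0.0731% of all promoters held such a pair. The Mdm2 window (chr10:117710709-117711008, - strand) had its match at -186 and the Bax window (chr7:45466849-45467148, - strand) at -201. The downstream start of Aen (chr7:78895808-78896107, + strand) had a match at -121, and the Trp53 window (chr11:69580109-69580408, + strand) had one at -75.
Trp53: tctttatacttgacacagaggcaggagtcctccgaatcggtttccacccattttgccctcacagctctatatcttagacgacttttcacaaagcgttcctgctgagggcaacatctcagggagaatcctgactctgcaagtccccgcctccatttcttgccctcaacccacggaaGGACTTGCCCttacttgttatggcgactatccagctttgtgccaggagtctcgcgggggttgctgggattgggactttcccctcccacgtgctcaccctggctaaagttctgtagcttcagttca
Mdm2: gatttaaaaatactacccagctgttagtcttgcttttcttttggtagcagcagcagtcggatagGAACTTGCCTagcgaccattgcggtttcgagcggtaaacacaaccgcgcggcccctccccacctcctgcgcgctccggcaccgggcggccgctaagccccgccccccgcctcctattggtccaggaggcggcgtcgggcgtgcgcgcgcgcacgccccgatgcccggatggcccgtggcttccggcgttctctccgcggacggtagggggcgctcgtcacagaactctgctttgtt
Cdkn1a: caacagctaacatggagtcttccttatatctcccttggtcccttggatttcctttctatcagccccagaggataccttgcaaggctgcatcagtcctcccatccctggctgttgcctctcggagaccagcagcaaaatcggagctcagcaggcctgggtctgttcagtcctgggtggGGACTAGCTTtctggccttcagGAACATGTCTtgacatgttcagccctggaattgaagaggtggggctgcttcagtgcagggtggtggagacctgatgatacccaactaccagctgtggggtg
Bax: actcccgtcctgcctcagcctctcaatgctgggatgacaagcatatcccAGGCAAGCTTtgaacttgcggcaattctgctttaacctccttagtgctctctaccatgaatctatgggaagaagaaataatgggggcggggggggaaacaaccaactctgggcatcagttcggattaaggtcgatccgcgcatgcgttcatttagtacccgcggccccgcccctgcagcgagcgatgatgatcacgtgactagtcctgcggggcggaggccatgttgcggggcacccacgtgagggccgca
Aen: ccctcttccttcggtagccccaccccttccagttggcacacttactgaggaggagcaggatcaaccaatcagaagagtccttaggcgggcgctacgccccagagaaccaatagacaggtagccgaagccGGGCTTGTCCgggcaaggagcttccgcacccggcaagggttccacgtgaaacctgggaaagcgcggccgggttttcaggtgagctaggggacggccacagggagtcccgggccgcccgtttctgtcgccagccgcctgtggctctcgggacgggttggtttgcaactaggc
The Ccng1 window also had 1 match, at -185. The windows of Phlda3, Sesn2 and Bbc3 and the downstream start of Cdkn1a had none, which says only that these letters are not in those windows. A match describes the sequence and is not a measured binding site.

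Levels are in FPKM (fragments per kilobase of transcript and 1e+06 fragments), which allows comparison between genes. Differences were tested with limma on log2(FPKM + 1), and a gene was called where its p, adjusted by Benjamini-Hochberg over all genes tested, was under 0.05. Depth, in units of 1e+06 fragments, was estimated at 21.8 to 25.8 for the 6 libraries with the PD-1 arm and 23.5 to 30.5 for the 6 without. The sum of FPKM was 388142 to 401179 with the arm and 327792 to 345596 without it, and 25553 to 31676 genes were above 0 with the arm against 24924 to 26203 without it. No batch is given in the labels, and a batch that followed this arm cannot be told apart from it. The 3 libraries of VHH-OD-PD-1-Fc lay far closer to each other than the libraries of any other group. Their median SD per gene was 0.0747 on the log2 scale, against 0.247 for VHH-PD-1-Fc, 0.123 for VHH-OD-Fc and 0.14 for Ctrl. Member calls and most list counts that involve VHH-OD-PD-1-Fc are therefore also given with its 3 libraries counted as 1 sample. All 6 markers of tumour epithelium were above 0 in every library, with a summed level of 1160 to 3520 FPKM. By group the sum was 2470 to 2530 with VHH-OD-PD-1-Fc, 1830 to 3520 with VHH-PD-1-Fc, 2170 to 2310 with VHH-OD-Fc and 1160 to 2560 with Ctrl. The lowest value, 1160, was that of Ctrl replicate 1. The part of tumour cell content in the differences below was not tested.

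All 10 genes were expressed, at levels that spanned more than an order of magnitude. Bax had the highest mean over the 12 libraries, 33.2 FPKM, above 88.1% of the genes tested. Cdkn1a at 23.2, Phlda3 at 20.9 and Trp53 at 19.6 FPKM followed, then Ccng1 at 14.7 and Mdm2 at 12.7. The low ones were Bbc3 at 5.43, Aen at 4.18 and Sesn2 at 3.99 FPKM, and Pmaip1 at 2.08 FPKM lay lowest, above 23.9% of the genes tested. Neighbours in this order overlapped in their libraries, so the order among Cdkn1a, Phlda3 and Trp53 and that among Bbc3, Aen and Sesn2 is within the spread. The estimated number of fragments behind a value was lowest for Pmaip1, 31.9 to 269 per library, and at least 176 for each of the other 9 genes, so counting error is largest for Pmaip1. In a moderated F test over the 4 groups, 5 of the 10 genes differed (Mdm2, Pmaip1, Aen, Cdkn1a and Bax), a share close to the 49.7% of all genes tested.

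**Figure D1:**
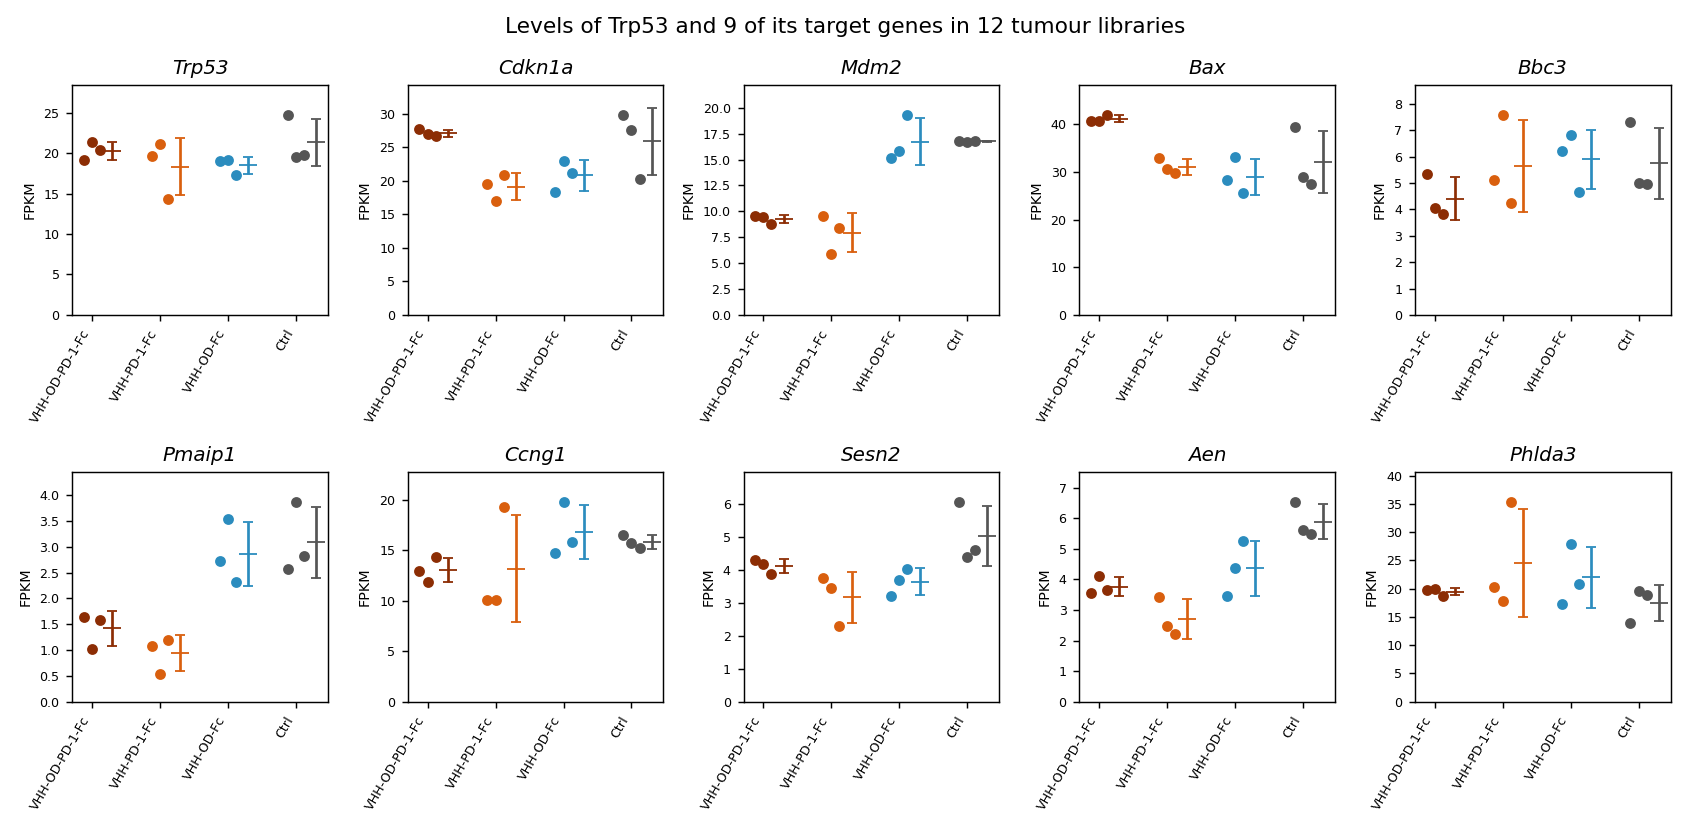
FPKM of each of the 10 genes in the 12 libraries, from left to right VHH-OD-PD-1-Fc, VHH-PD-1-Fc, VHH-OD-Fc and Ctrl; points are libraries and the bar beside them is the mean with its SD (n = 3). All 6 libraries with the PD-1 arm lie below all 6 without it for Mdm2 and Pmaip1. For Trp53 these sets of 6 overlap, while its VHH-OD-Fc libraries all lie below its Ctrl libraries.

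Trp53 itself did not pass the test in any comparison on FPKM as deposited. Its level was 19.1, 21.3 and 20.4 FPKM with VHH-OD-PD-1-Fc, 19.6, 21.1 and 14.3 with VHH-PD-1-Fc, 19.0, 19.1 and 17.3 with VHH-OD-Fc, and 24.7, 19.5 and 19.7 with Ctrl. One VHH-PD-1-Fc library lay low and 1 Ctrl library high, and the other 10 lay between 17.3 and 21.3 FPKM. Against Ctrl, the log2 difference was -0.06 for VHH-OD-PD-1-Fc (95% interval -0.37 to 0.24), -0.22 for VHH-PD-1-Fc (-0.52 to 0.09) and -0.19 for VHH-OD-Fc (-0.49 to 0.12), with a limma adjusted p of 0.73, 0.22 and 1. The VHH-PD-1-Fc difference depended on scaling, at -0.45 and called after rescaling to TPM (adjusted p = 0.016) and at 0.00 by median of ratios. These intervals allow a fall of Trp53 by about 0.5 on the log2 scale with either single arm. By the root mean square difference between centred log2 profiles over the 12 libraries, the genes whose pattern was most like that of Trp53 were Telo2 at 0.0667, Smpdl3b at 0.0708 and Abhd16a at 0.0789, out of 12092 genes compared with a median of 0.305. A flat profile would stand at 0.169 from Trp53.

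Mdm2, the inhibitor of p53, fell in tumours treated with either construct that carries the PD-1 arm, to 0.494 times the Ctrl value with VHH-PD-1-Fc and 0.577 times with VHH-OD-PD-1-Fc, on the FPKM + 1 scale. Its level was 9.55, 9.42 and 8.82 FPKM with VHH-OD-PD-1-Fc, 9.56, 5.86 and 8.35 with VHH-PD-1-Fc, 15.1, 15.8 and 19.3 with VHH-OD-Fc, and 16.8, 16.7 and 16.8 with Ctrl. The 6 libraries with the arm (5.86 to 9.56 FPKM) lay below the 6 without it (15.1 to 19.3 FPKM), with no overlap. The log2 fold change was -1.02 for VHH-PD-1-Fc against Ctrl (SE 0.14, limma adjusted p = 0.00041) and -0.78 for VHH-OD-PD-1-Fc against VHH-OD-Fc (SE 0.14, adjusted p = 0.002), which share no library. For VHH-OD-PD-1-Fc against Ctrl it was -0.79 (SE 0.14, adjusted p = 0.0017). VHH-OD-Fc and Ctrl had means of 16.7 ± 2.25 and 16.8 ± 0.0601 FPKM (SD, n = 3 each), a difference of -0.01 with a 95% interval of -0.33 to 0.31. Counting VHH-OD-PD-1-Fc as 1 sample, the adjusted p was 0.061 against Ctrl and 0.071 against VHH-OD-Fc.

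Cdkn1a and Ccng1 act on the cell cycle. Cdkn1a encodes p21, an inhibitor of cyclin-dependent kinases that halts cells in G1, and Ccng1 encodes cyclin G1, which feeds back on MDM2 and p53. Cdkn1a was at 27.7, 26.9 and 26.7 FPKM with VHH-OD-PD-1-Fc, 19.5, 17.0 and 20.9 with VHH-PD-1-Fc, 18.3, 22.9 and 21.2 with VHH-OD-Fc, and 29.8, 27.6 and 20.2 with Ctrl. The VHH-OD-PD-1-Fc libraries lay above all 6 libraries of the single-arm constructs, while Ctrl spread over the range of both. They lay wholly above VHH-PD-1-Fc for 13.8% of all genes, and the share above both single-arm groups was not counted. Cdkn1a fell with VHH-PD-1-Fc against Ctrl by 0.40 on the log2 scale (SE 0.14, limma adjusted p = 0.036), a call in which the libraries of both groups overlap. The call was lost in 16 of 24 alternative settings. Among single libraries, it was lost without Ctrl replicate 1 (adjusted p = 0.13) or Ctrl replicate 2 (0.1), VHH-PD-1-Fc replicate 1 (0.054) or replicate 2 (0.11), or any 1 VHH-OD-PD-1-Fc library (0.05 to 0.051). For VHH-OD-PD-1-Fc against VHH-OD-Fc the log2 difference of Cdkn1a was 0.37 (95% interval 0.07 to 0.68, adjusted p = 0.054). That difference passed the threshold in 9 of 24 alternative settings, with an adjusted p of 0.0079 to 0.048 in those 9. They include median of ratios (0.49, adjusted p = 0.012), quantiles (0.048), length and GC trends removed (0.042), library quality weights (0.0079) and leaving out Ctrl replicate 1 (0.041), Ctrl replicate 3 (0.022) or VHH-PD-1-Fc replicate 2 (0.044). With quality weights Cdkn1a was also called higher in VHH-OD-PD-1-Fc than in Ctrl (0.32, adjusted p = 0.012, against 0.08 without them). Against VHH-PD-1-Fc the difference was 0.49 (0.18 to 0.79, adjusted p = 0.13). The genes with the pattern most like Cdkn1a were Rpn1 at 0.116, Erp44 at 0.13 and Usp39 at 0.131, by the measure used for Trp53, with a median of 0.347 over the genes compared and 0.248 for a flat profile. Ccng1 ranged from 10.1 to 19.8 FPKM and was called in no comparison on FPKM as deposited. Its VHH-PD-1-Fc libraries were 10.1, 10.1 and 19.3 FPKM, and without the third of them its log2 fold change against Ctrl went past the threshold, at -0.60 (adjusted p = 0.0031), against -0.31 (adjusted p = 0.23) with it. Without that library the difference of VHH-OD-PD-1-Fc from VHH-OD-Fc, -0.33 in both fits, also passed (adjusted p = 0.032). Rescaled to TPM, both differences of Ccng1 were called, at -0.55 and -0.57 (adjusted p = 0.047 each).

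Bax, Bbc3, Pmaip1 and Aen belong to apoptosis. Bax encodes a pore-forming BCL2 family protein of the mitochondrial outer membrane, Bbc3 (PUMA) and Pmaip1 (NOXA) encode BH3-only proteins that act on the anti-death members of that family, and Aen encodes a nuclease linked to apoptosis. They did not move together. Pmaip1 fell in all 3 comparisons across the PD-1 arm and Aen in the 2 of them against Ctrl. Bax rose with VHH-OD-PD-1-Fc against both Ctrl and VHH-OD-Fc, and Bbc3 was called in no comparison on FPKM as deposited.

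Pmaip1 was at 1.64, 1.03 and 1.59 FPKM with VHH-OD-PD-1-Fc, 1.08, 0.537 and 1.2 with VHH-PD-1-Fc, 2.73, 3.53 and 2.32 with VHH-OD-Fc, and 2.56, 3.87 and 2.82 with Ctrl. As for Mdm2, the 6 libraries with the PD-1 arm lay below the 6 without it. The log2 fold change was -1.08 for VHH-PD-1-Fc against Ctrl (SE 0.19, limma adjusted p = 0.0011), -0.75 for VHH-OD-PD-1-Fc against Ctrl (SE 0.19, adjusted p = 0.0084) and -0.67 for VHH-OD-PD-1-Fc against VHH-OD-Fc (SE 0.19, adjusted p = 0.015). A pseudocount of 1 shrinks differences at this level, and with 0.1 the values were -1.66, -1.07 and -0.97. The call against VHH-OD-Fc was lost without VHH-OD-PD-1-Fc replicate 2 (adjusted p = 0.065) or VHH-OD-Fc replicate 2 (0.06). Counting VHH-OD-PD-1-Fc as 1 sample, the adjusted p was 0.11 against Ctrl and 0.15 against VHH-OD-Fc.

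Aen was at 3.55, 4.11 and 3.64 FPKM with VHH-OD-PD-1-Fc, 3.44, 2.47 and 2.2 with VHH-PD-1-Fc, 3.46, 4.36 and 5.25 with VHH-OD-Fc, and 6.54, 5.6 and 5.5 with Ctrl. All 3 treated groups lay below all 3 Ctrl libraries. The share of all genes with this order was not counted, so the order is not read as particular to Aen. Against Ctrl, 32.3% of all genes were called lower with VHH-PD-1-Fc and 27.1% with VHH-OD-PD-1-Fc. The VHH-OD-Fc libraries lay wholly below Ctrl for 6.7% of all genes. Aen fell with VHH-PD-1-Fc against Ctrl by 0.90 on the log2 scale (SE 0.15, limma adjusted p = 0.00086) and with VHH-OD-PD-1-Fc against Ctrl by 0.53 (SE 0.15, adjusted p = 0.016). The second call held in 15 of 23 alternative settings. It was lost by median of ratios (-0.39, adjusted p = 0.051), by quantiles (-0.30, 0.14), with length and GC trends removed (-0.26, 0.16) and without the 3 libraries that stood apart (-0.46, 0.066). It was also lost without VHH-OD-PD-1-Fc replicate 1 (adjusted p = 0.054) or Ctrl replicate 1 (0.055), and when VHH-OD-PD-1-Fc counted as 1 sample (0.17). Against VHH-OD-Fc, VHH-OD-PD-1-Fc differed by -0.16 (95% interval -0.48 to 0.17, adjusted p = 0.43), with overlapping libraries.

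Bax was at 40.6, 40.7 and 41.9 FPKM with VHH-OD-PD-1-Fc, 32.8, 30.5 and 29.7 with VHH-PD-1-Fc, 28.2, 33.0 and 25.6 with VHH-OD-Fc, and 39.4, 29.0 and 27.5 with Ctrl. The 3 highest of the 12 libraries were those of VHH-OD-PD-1-Fc, and 1 Ctrl library, at 39.4 FPKM, came close to them. How many of all genes had these 3 libraries highest was not counted. Bax rose with VHH-OD-PD-1-Fc against VHH-OD-Fc by 0.50 on the log2 scale (SE 0.13, limma adjusted p = 0.013) and against Ctrl by 0.37 (SE 0.13, adjusted p = 0.044). The call against Ctrl was lost in 11 of 24 alternative settings and the call against VHH-OD-Fc in 3 of 24. Both were lost under a rescaling to TPM (0.15, adjusted p = 0.35 against Ctrl, and 0.28, adjusted p = 0.089 against VHH-OD-Fc). Among single libraries, the call against Ctrl was lost without any 1 VHH-OD-PD-1-Fc library (adjusted p of 0.093 to 0.11), VHH-OD-Fc replicate 1 (0.059), Ctrl replicate 2 (0.13) or Ctrl replicate 3 (0.16), and the call against VHH-OD-Fc without VHH-OD-Fc replicate 3 (0.053). Counting VHH-OD-PD-1-Fc as 1 sample, the adjusted p was 0.28 against Ctrl and 0.17 against VHH-OD-Fc. VHH-PD-1-Fc differed from Ctrl by -0.03 (95% interval -0.32 to 0.27). Bbc3 ranged from 3.84 to 7.58 FPKM with overlapping groups, and its log2 difference was -0.04 for VHH-PD-1-Fc against Ctrl (-0.49 to 0.42) and -0.35 for VHH-OD-PD-1-Fc against VHH-OD-Fc (-0.80 to 0.10). Rescaled to TPM, Bbc3 was called lower with VHH-OD-PD-1-Fc, at -0.60 against VHH-OD-Fc (adjusted p = 0.038) and -0.57 against Ctrl (0.045), and with quality weights at -0.38 against VHH-OD-Fc (0.029).

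Sesn2 and Phlda3 act on growth signalling. Sesn2 encodes sestrin 2, which restrains mTORC1 and is also raised by other stresses, and Phlda3 encodes a repressor of AKT. Sesn2 was at 4.31, 4.19 and 3.89 FPKM with VHH-OD-PD-1-Fc, 3.76, 3.46 and 2.29 with VHH-PD-1-Fc, 3.21, 3.69 and 4.04 with VHH-OD-Fc, and 6.07, 4.4 and 4.6 with Ctrl. As for Aen, every treated library lay below every Ctrl library, by a narrow margin for VHH-OD-PD-1-Fc, where 4.31 stands against 4.4 FPKM. The share of all genes with this order was not counted here either. Sesn2 fell with VHH-PD-1-Fc against Ctrl by 0.54 on the log2 scale (SE 0.15, limma adjusted p = 0.014), and the call was lost without Ctrl replicate 1 (-0.42, adjusted p = 0.054) and in 5 other of 23 alternative settings, among them median of ratios (-0.35, 0.085), quantiles (-0.25, 0.22) and length and GC trends removed (-0.32, 0.073). Rescaled to TPM, Sesn2 was also called lower with VHH-OD-PD-1-Fc than with Ctrl (-0.46, adjusted p = 0.042, against -0.22 on FPKM). Phlda3 ranged from 13.9 to 35.4 FPKM, with the highest value in 1 VHH-PD-1-Fc library whose other replicates were at 20.3 and 17.8 FPKM. Its log2 difference from Ctrl was 0.42 for VHH-PD-1-Fc (95% interval -0.11 to 0.94, adjusted p = 0.17), and it was called in no comparison on FPKM as deposited. By median of ratios that difference was 0.64 and called (adjusted p = 0.043).

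**Figure D2:**
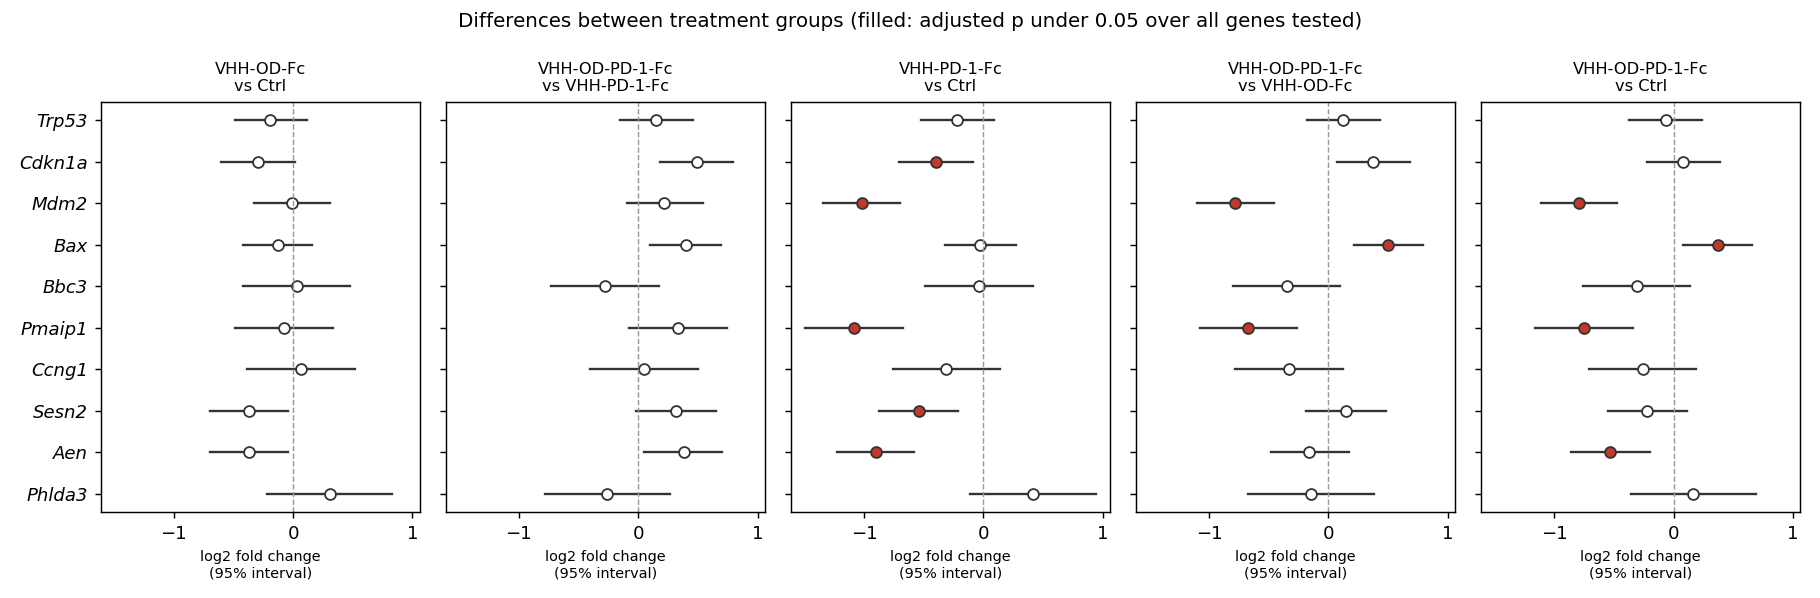
Log2 fold change with its 95% interval for the 10 genes in 5 comparisons, with calls at an adjusted p under 0.05 filled. Mdm2 and Pmaip1 are filled below 0 in the 3 comparisons across the PD-1 arm, Bax is filled above 0 in both comparisons of VHH-OD-PD-1-Fc with a group that lacks the arm, and no gene is filled in the comparisons across the OD arm.

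Counted by comparison, VHH-PD-1-Fc against Ctrl had 5 of the 10 genes lower (Mdm2, Pmaip1, Aen, Sesn2 and Cdkn1a) and 0 higher, where 32.3% of all genes tested were called lower and 14.6% higher. Their median log2 fold change was -0.36, against -0.19 over all genes. VHH-OD-PD-1-Fc against Ctrl had 3 lower (Mdm2, Pmaip1 and Aen) and 1 higher (Bax), where 27.1% of all genes were called lower and 15.1% higher, with medians of -0.24 for the 10 genes and -0.14 over all genes. VHH-OD-PD-1-Fc against VHH-OD-Fc had 2 lower (Mdm2 and Pmaip1) and 1 higher (Bax), where 24.5% were called lower and 15.4% higher, with medians of -0.15 and -0.11. With so many genes called across the PD-1 arm, these shares are near the background. Counting VHH-OD-PD-1-Fc as 1 sample, both of its comparisons had 0 of the 10 genes called, while 1312 and 1083 genes were called in all.

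Mdm2 and Pmaip1 were the 2 members called lower both for VHH-PD-1-Fc against Ctrl and for VHH-OD-PD-1-Fc against VHH-OD-Fc, as were 19.3% of all genes tested, and 0 members were called higher in both, against 10.4%. They were also the 2 with all 6 libraries with the PD-1 arm below all 6 without it, as were 22.7% of all genes. The other 8 members overlapped between those sets of 6. The Mdm2 call for VHH-PD-1-Fc against Ctrl held in 24 of 24 alternative settings, with a log2 fold change of -1.30 to -0.72 and an adjusted p of 0.00015 to 0.011. Those of Pmaip1 and Aen in that comparison held in 23 of 23.

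**Figure D3:**
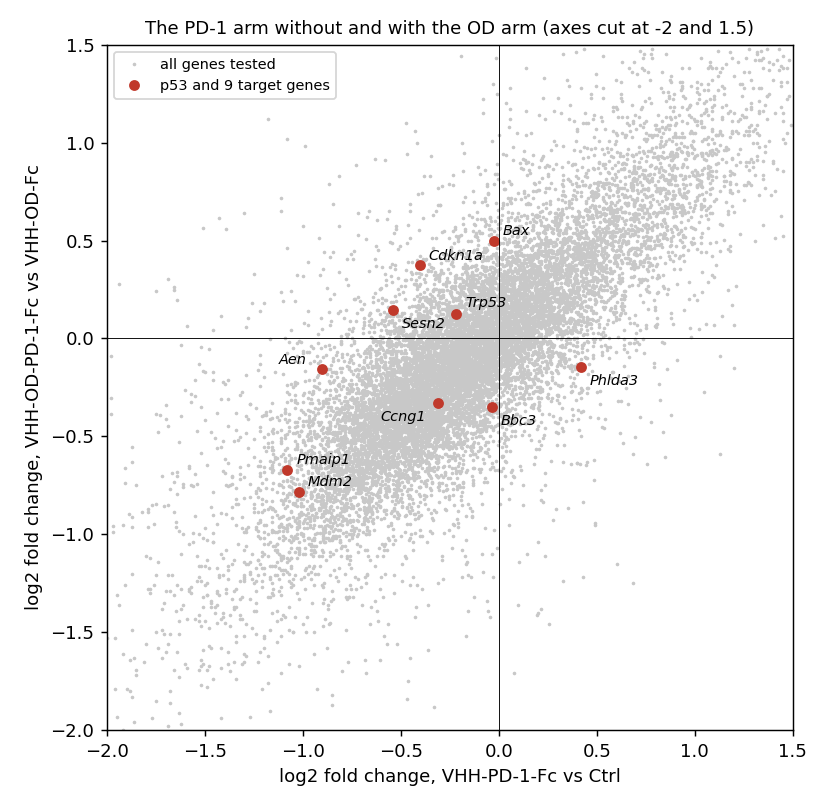
Log2 fold change for VHH-OD-PD-1-Fc against VHH-OD-Fc (vertical axis) and VHH-PD-1-Fc against Ctrl (horizontal axis), which share no library, with grey points for the 14306 genes tested (298 lie beyond the axes) and red points for the 10 genes. Mdm2 and Pmaip1 lie at the lower left, while Trp53, Cdkn1a, Sesn2 and Bax lie left of 0 on the horizontal axis and above 0 on the vertical one.

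Across the OD arm, VHH-OD-Fc against Ctrl had 0 of the 10 genes called by limma, and 0% of all genes. At an unadjusted p under 0.05 there were 2 of the 10, against 3.14% of all genes. These were Aen and Sesn2, each with a log2 difference of -0.37 (95% interval -0.70 to -0.04) and an adjusted p of 1. With library quality weights, 4 genes in the whole table were called. Trp53, Aen and Sesn2 had all 3 VHH-OD-Fc libraries below all 3 Ctrl libraries, as did 6.7% of all genes.

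VHH-OD-PD-1-Fc against VHH-PD-1-Fc also had 0 of the 10 genes called, against 0.839% of all genes. In that comparison the VHH-OD-PD-1-Fc libraries lay above the VHH-PD-1-Fc libraries without overlap for Cdkn1a, Bax, Sesn2 and Aen, as did 13.8% of all genes. At an unadjusted p under 0.05 there were 3 of the 10 (Cdkn1a, Bax and Aen), against 15.5% of all genes. The departure from additivity sets the difference between VHH-OD-PD-1-Fc and Ctrl against the sum of the differences seen with each single arm, and doses differ between the constructs. It was 0.78 for Cdkn1a (SE 0.20, limma adjusted p = 0.16), 0.75 for Aen (SE 0.21, 0.21), 0.68 for Sesn2 (SE 0.21, 0.26) and 0.53 for Bax (SE 0.19, 0.30). None of the 10 was called, against 0.112% of all genes, and these 4 had an unadjusted p under 0.05, against 11.9% of all genes.

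Other genes of the pathway split in both directions, and the balance changed with scaling. Of 30 further p53 targets, 26 were tested, and VHH-PD-1-Fc against Ctrl had 10 lower and 3 higher, with a median of -0.33, where 32.3% of all genes were called lower and 14.6% higher with a median of -0.19. Polk, a translesion DNA polymerase, fell by 0.91 on the log2 scale (SE 0.13, limma adjusted p = 0.0004), and Rrm2b, a ribonucleotide reductase subunit for DNA repair, fell by 0.58 (SE 0.12, adjusted p = 0.0027). Ei24, an endoplasmic reticulum protein, rose by 0.55 (SE 0.10, adjusted p = 0.0018). VHH-OD-PD-1-Fc against VHH-OD-Fc had 6 lower and 3 higher, with a median of -0.03. There, 24.5% of all genes were called lower and 15.4% higher, with a median of -0.11. In that comparison Polk fell by 0.87, Rrm2b by 0.55 and Apaf1, which encodes the scaffold of the apoptosome, by 0.42. Plk3, a polo-like kinase that responds to stress, was lower with VHH-PD-1-Fc than with Ctrl (-0.75, adjusted p = 0.0032) and higher with VHH-OD-PD-1-Fc than with VHH-PD-1-Fc (1.11, SE 0.16, adjusted p = 0.017, but 1 with VHH-OD-PD-1-Fc as 1 sample). It was the 1 of these targets called between the constructs that carry the PD-1 arm. With trends on transcript length and GC removed, the counts for VHH-PD-1-Fc against Ctrl turned to 2 lower and 5 higher, with a median of -0.01, as the counts over all genes also turned, to 2216 lower and 2868 higher. For VHH-OD-PD-1-Fc against VHH-OD-Fc they turned to 1 lower and 5 higher, with a median of 0.09, and those over all genes to 1907 lower and 2515 higher. Polk stayed called in both, at -0.50 and -0.55, while Rrm2b (adjusted p of 0.2 and 0.09) and Apaf1 (0.67 and 0.53) did not.

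Of 18 regulators and relatives of p53, 14 were tested, and VHH-PD-1-Fc against Ctrl had 7 lower and 3 higher, with a median of -0.34. There, 32.3% of all genes were called lower and 14.6% higher, with a median of -0.19. VHH-OD-PD-1-Fc against VHH-OD-Fc had 6 lower and 1 higher, with a median of -0.23, where 24.5% of all genes were called lower and 15.4% higher. The median of all genes was -0.11 in that comparison. Mdm4, the partner of MDM2 in holding p53 inactive, fell by 0.67 (SE 0.14, limma adjusted p = 0.0038) in the first and by 0.93 (SE 0.14, adjusted p = 0.00083) in the second. The acetyltransferases Ep300 and Kat5, which act on p53, fell by 0.80 and 0.66 in the first and by 0.54 and 0.63 in the second. Usp7, a deubiquitinase of MDM2 and p53, fell by 0.65 in the first comparison (adjusted p = 0.002). Rpl11, a ribosomal protein that binds and inhibits MDM2 when ribosome assembly is disturbed, rose by 0.71 (SE 0.10, adjusted p = 0.00039) in the first and by 0.66 (SE 0.10, adjusted p = 0.00074) in the second. With trends on length and GC removed, the counts were 2 lower and 5 higher in the first and 2 lower and 2 higher in the second. Mdm4 then kept its call in the second (-0.54, adjusted p = 0.005) and not in the first (-0.21, adjusted p = 0.16), and Usp7 lost its own in the first (0.1). Ep300 lost its call in the second (-0.25, adjusted p = 0.1).

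Of 15 further BCL2 family genes, 14 were tested. VHH-PD-1-Fc against Ctrl, where 32.3% of all genes were called lower and 14.6% higher, had 2 lower and 3 higher. VHH-OD-PD-1-Fc against VHH-OD-Fc, where 24.5% were called lower and 15.4% higher, had 3 lower and 5 higher. The first counts became 1 lower and 7 higher with trends on length and GC removed, 2 and 7 by median of ratios, and 3 and 3 in TPM. The second became 2 lower and 6 higher, 3 and 5, and 3 and 3 in the same order. Only some of the called genes are named here, so they do not stand for the anti-death or the death genes as a set. The anti-death genes Bcl2l2 and Mcl1 fell by 0.70 and 0.51 in the first and by 0.62 and 0.51 in the second. Bok, a pore-forming relative of Bax, rose by 0.83 (SE 0.16, limma adjusted p = 0.0019) and 1.08 (SE 0.16, adjusted p = 0.00066), and the BH3-only gene Bad rose by 0.67 and 0.55. Bak1, the other pore-forming relative, rose by 0.48 (SE 0.12, adjusted p = 0.0085) in the second, but by TPM it was at 0.26 and not called (adjusted p = 0.083). Of the 6 other inhibitors of cyclin-dependent kinases, 4 were tested, and Cdkn1b (p27) fell by 0.94 (adjusted p = 0.00091) and 0.92 (adjusted p = 0.0013) while the other 3 were not called. Mcl1 lost its call in the first with trends on length and GC removed (adjusted p = 0.075). VHH-OD-Fc against Ctrl had 0 genes called in any of these lists. Counting VHH-OD-PD-1-Fc as 1 sample, its comparison with VHH-OD-Fc kept calls for Polk, Mdm4, Rpl11 and Bok among the genes named here.

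**Figure D4:**
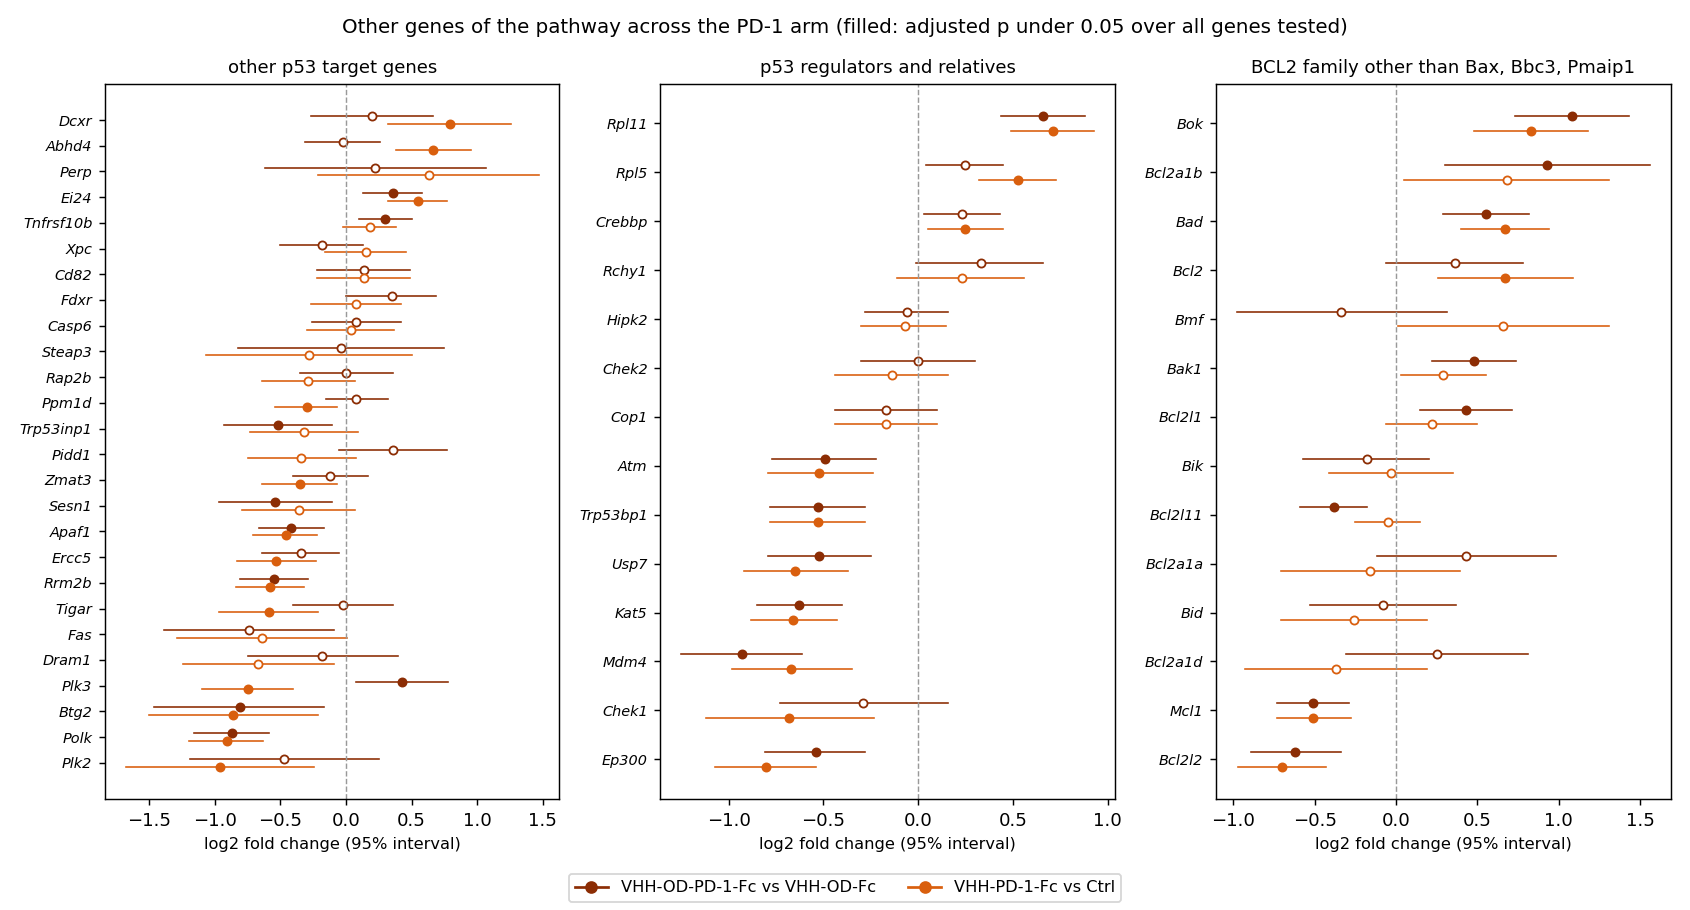
Log2 fold change with its 95% interval of VHH-OD-PD-1-Fc over VHH-OD-Fc and of VHH-PD-1-Fc over Ctrl, for the tested genes of 3 lists: other p53 targets, regulators and relatives of p53, and BCL2 family genes other than members, with calls filled. Polk, Rrm2b, Mdm4 and Mcl1 lie below 0 in both, and Ei24, Rpl11, Bok and Bad above 0 in both.

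Markers of other cell types differed between the same groups. Over all genes tested, 32.3% were called lower and 14.6% higher for VHH-PD-1-Fc against Ctrl. For VHH-OD-PD-1-Fc the shares were 27.1% and 15.1% against Ctrl, and 24.5% and 15.4% against VHH-OD-Fc. The summed level of 5 endothelial markers was 15.6 to 18 FPKM with VHH-OD-PD-1-Fc, 13.9 to 18.1 with VHH-PD-1-Fc, 29.1 to 38.6 with VHH-OD-Fc and 23.7 to 34.3 with Ctrl, and 4 of 5 were called lower in each comparison across the PD-1 arm. The sum of 6 fibroblast markers was 535 to 539 FPKM with VHH-OD-PD-1-Fc, 215 to 450 with VHH-PD-1-Fc, 664 to 1080 with VHH-OD-Fc and 558 to 790 with Ctrl. Of these 6, 5 were called lower for VHH-PD-1-Fc against Ctrl and for VHH-OD-PD-1-Fc against VHH-OD-Fc, and 1 for VHH-OD-PD-1-Fc against Ctrl. With VHH-OD-PD-1-Fc as 1 sample, its endothelial calls were 1 against Ctrl and 2 against VHH-OD-Fc, and its fibroblast calls 1 in each. The sum of 5 adipocyte markers was 7.97 to 9.41 FPKM with VHH-OD-PD-1-Fc, 2.18 to 12.5 with VHH-PD-1-Fc, 25.7 to 89.6 with VHH-OD-Fc and 12.2 to 36.9 with Ctrl. All 3 that were tested were called lower for VHH-OD-PD-1-Fc against VHH-OD-Fc, and 0 with its libraries as 1 sample. The sum of 5 skeletal muscle markers was 172 to 174 FPKM with VHH-OD-PD-1-Fc, 5.37 to 30.6 with VHH-PD-1-Fc, 12.7 to 1990 with VHH-OD-Fc and 8.1 to 250 with Ctrl, with 0 of the 5 called. Of 6 proliferation genes, 4 were called lower for VHH-PD-1-Fc against Ctrl, with a sum of 107 to 174 FPKM against 164 to 190 FPKM. The sum was 186 to 191 FPKM with VHH-OD-PD-1-Fc and 163 to 179 with VHH-OD-Fc. With VHH-OD-PD-1-Fc, 1 proliferation gene was called lower against Ctrl, and 1 lower and 1 higher against VHH-OD-Fc. The sum of 6 neutrophil markers was 1900 to 1950 FPKM with VHH-OD-PD-1-Fc and overlapped among the other groups, at 399 to 1200 with VHH-PD-1-Fc, 458 to 1870 with VHH-OD-Fc and 622 to 913 with Ctrl. Of these 6, 2 were called lower for VHH-PD-1-Fc against Ctrl. With VHH-OD-PD-1-Fc, 2 were called higher against Ctrl and 1 against VHH-OD-Fc. The sum of 6 T cell markers was 7.97 to 9.25 FPKM with VHH-OD-PD-1-Fc and 6.73 to 17 with VHH-PD-1-Fc. It was 7.43 to 12.7 with VHH-OD-Fc and 14 to 26 with Ctrl. For 6 macrophage markers it was 1050 to 1080 FPKM with VHH-OD-PD-1-Fc and 851 to 2440 with VHH-PD-1-Fc. With VHH-OD-Fc it was 622 to 830, and with Ctrl 682 to 1240. For 4 B cell markers it was 0.343 to 0.848 FPKM with VHH-OD-PD-1-Fc and 1.31 to 29.9 in the other groups. The part of these cells in the differences of Mdm2, Pmaip1, Aen and Bax was not tested.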

How the data were processed

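Tumour RNA was measured by poly(A) RNA-seq in 12 libraries. The authors deposited 1 table of FPKM values for 41009 gene symbols, with 12 library columns matched to samples by name. Among the tools in the submitters' processing notes are fastp 0.22.0 and HISAT2 2.2.1. These notes name GRCh38, which is a human build, for a table of mouse symbols. How FPKM was computed, on which annotation and with what strand setting is not given in the sources used here. Since FPKM is no count, limma 3.58.1 (R 4.3.3) was run on log2(FPKM + 1), with no further scaling. Genes with FPKM of 1 or more in 3 or more libraries were kept, 14306 in all. One fit with a mean per group (8 residual degrees of freedom, variance trend) gave all comparisons, two-sided. Changes of low genes are understated on this scale. Depth was estimated from the step between low values, of which 64.5% to 69.3% lay within 0.05 of a whole number, so counts were not recovered. Transcript lengths came from GENCODE M21. The test was checked on simulated data, drawn as independent libraries with the same spread per gene in all groups. The groups here differ in spread and their libraries may not be independent, so that check does not cover these points. The members and gene lists were chosen with earlier results of these data known. All 10 members were named, and from each list up to 6 called genes of smallest p per comparison were eligible. Of the listed genes, Eda2r, Gdf15, Trp53cor1, Atr, Cdkn2a, Trp63, Trp73 and Hrk were below the filter, and Tnfrsf10a was not analysed here. One gene of the list of regulators is not reported here and was left out of its counts. The series' design text concerns a different tumour and was not used. Alternatives covered the pseudocount, filter, scaling, library weights, samples in the fit and single libraries.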

Additional observations from a re-analysis of the deposited data

How the results depend on the processing

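Of 1412 values of the 10 genes under alternative settings, 1278 kept their direction and side of the threshold, 49 lost a call, 23 gained one and 62 changed sign, none of them called. Scaling changed the split of all calls. For VHH-PD-1-Fc against Ctrl it was 2092 higher and 4615 lower, 1346 and 6800 after rescaling to TPM, 3129 and 2843 by median of ratios, 2815 and 2593 by quantiles, and 2868 and 2216 with trends on length and GC removed, and the median of all genes was -0.19, -0.43, -0.01, -0.02 and 0.02. Mdm2 stayed lower under each, at -0.72 with length and GC removed. The cause of other shifts was not tested.

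Sign changes by median of ratios were Mdm2 0.03 for VHH-OD-Fc against Ctrl, Trp53 0.00, Bax 0.20 and Bbc3 0.16 for VHH-PD-1-Fc against Ctrl, Trp53 0.09 for VHH-OD-PD-1-Fc against Ctrl, then Ccng1 -0.01 for VHH-OD-PD-1-Fc against VHH-PD-1-Fc. By quantiles, and in the same order of comparisons, they were Mdm2 0.02, then Bax 0.00 and Bbc3 0.23, then Sesn2 0.01, and Aen 0.04 for VHH-OD-PD-1-Fc against VHH-OD-Fc. With length and GC removed they were Mdm2 0.03, then Bbc3 0.11 and Ccng1 0.07, then Trp53 0.11, Ccng1 0.04 and Sesn2 0.01, with Aen 0.09 against VHH-OD-Fc and Ccng1 -0.03 against VHH-PD-1-Fc. With quality weights they were Bax 0.02, then Bax 0.14 and Bbc3 0.07, then Trp53 0.02, and Ccng1 0.00 for additivity. Without the 3 libraries that stood apart (replicate 1 of Ctrl and replicate 2 of both VHH-OD-Fc and VHH-PD-1-Fc) they were Mdm2 0.03, Ccng1 -0.02 and Phlda3 -0.02, then Bax 0.14, then Trp53 0.04, with Phlda3 0.03 against VHH-OD-Fc and Ccng1 -0.10 against VHH-PD-1-Fc. In TPM, VHH-OD-PD-1-Fc gave Cdkn1a -0.14 and Phlda3 -0.06 against Ctrl, and Trp53 -0.10 and Sesn2 -0.04 against VHH-OD-Fc.

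Leaving out 1 library at a time gave, for VHH-OD-Fc against Ctrl, Mdm2 -0.11 to 0.05, Bbc3 -0.06 to 0.19, Ccng1 -0.05 to 0.15, Pmaip1 -0.20 to 0.05 and Bax -0.23 to 0.03. For VHH-PD-1-Fc against Ctrl it gave Bbc3 -0.23 to 0.12 and Bax -0.12 to 0.13. For VHH-OD-PD-1-Fc it gave Trp53 -0.12 to 0.04 and Cdkn1a -0.08 to 0.19 against Ctrl, Phlda3 -0.30 to 0.03 against VHH-OD-Fc, and Ccng1 -0.10 to 0.34, Trp53 -0.01 to 0.26 and Phlda3 -0.45 to 0.03 against VHH-PD-1-Fc. For additivity it gave Ccng1 -0.17 to 0.27. Counts then ranged over 0 to 1 genes for VHH-OD-Fc against Ctrl, 3 to 6 members for VHH-PD-1-Fc against Ctrl, 2 to 4 members for VHH-OD-PD-1-Fc against Ctrl, 9 to 538 genes for VHH-OD-PD-1-Fc against VHH-PD-1-Fc and 3 to 105 genes for additivity.

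Other counts moved as follows. VHH-OD-Fc against Ctrl had 2 genes with no filter and 4 with quality weights. VHH-PD-1-Fc against Ctrl had 3741 genes and 2 members at a mean FPKM of at least 5, 3821 genes and 3 members with only the groups compared, and 3 members by quantiles, with length and GC removed, and without the 3 libraries apart. VHH-OD-PD-1-Fc against Ctrl had 9901 genes with quality weights, 3293 genes and 2 members at a mean FPKM of at least 5, 2 members with length and GC removed, and 1312 genes and 0 members with its libraries as 1 sample. VHH-OD-PD-1-Fc against VHH-OD-Fc had 8716 genes and 5 members with quality weights, 3157 genes at a mean FPKM of at least 5, 5 members with only the groups compared, and 1083 genes and 0 members as 1 sample. VHH-OD-PD-1-Fc against VHH-PD-1-Fc, with 120 genes, had 188 with no filter, 11 with quality weights, 46 with only the groups compared, 524 and 1 member (Bax, 0.39, adjusted p = 0.044) without the 3 libraries apart, 3 as 1 sample and 73 in TPM. Additivity, with 16 genes, had 38 with quality weights, 56 without the 3 libraries apart, 3 as 1 sample and 10 with a pseudocount of 0.1.

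Libraries with the same replicate number shared little: correlations of their deviations ran from -0.15 to 0.18. Libraries with different numbers were not compared, so a weak pairing cannot be told from these values. With a replicate block, VHH-PD-1-Fc against Ctrl had 6384 genes and 4 members (Cdkn1a lost), VHH-OD-PD-1-Fc had 5753 genes over Ctrl, 5453 over VHH-OD-Fc and 28 over VHH-PD-1-Fc, and additivity had 3. Depth limits Pmaip1 most, and it is read from an estimate.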
